A study of Mus musculus with 36 samples.

Results

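Brains of Tet1 knockout embryos were compared with brains of heterozygous siblings and litters of the same diet, the one with excess folic acid (30 ppm FA). The comparison holds 10 of the 36 libraries of the series. The 5 knockout (KO) and 5 heterozygous (HET) libraries were chosen by the genotype and diet in the sample titles, and a library labelled KO (replicate 1, embryo TP36.6) was left out because its genotype is in dispute. The title and genotype label of that embryo say KO, while the study's list of embryos gives it as HET with a brain malformation. Each library is the brain of a single embryo at E11.5, taken from the forebrain to the hindbrain above the otic vesicle. All embryos carried the Tet1 tm1Koh allele on the 129S6.Cg strain and came from HET dams kept on the 30 ppm diet, which held the antibiotic SST as did the other diets, before and during pregnancy, so the controls have 1 disrupted copy of Tet1 themselves. KO here is the loss of the full-length Tet1 transcript. Per the study, a short transcript from a downstream start could still be detected in KO brains of this stage, and neither form of the protein was seen on blots of WT or KO brains.

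TET1 is a dioxygenase that oxidises 5-methylcytosine (5mC), the first step towards the removal of a methyl group from DNA. It binds mainly to CpG-rich promoters and their borders, and it is known in mice for a role in the closure of the cranial neural tube. Folate carries the one-carbon units from which the methyl donor of DNA methyltransferases is made. The libraries were made by oxidative bisulfite reduced representation sequencing of DNA cut with MspI and TaqI. The oxidation step leaves 5mC as the only form that reads as methylated, so the oxidised products of TET enzymes are not counted. A level of 5mC is the percentage of reads at a CpG that were methylated. In bulk tissue a change in the share of cells that carry a methyl group cannot be told apart from a change in the mixture of cell types.

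The KO embryos came from litters 36, 38, 41, 41 and 43 and the HET embryos from litters 36, 36, 38, 38 and 41, and each group held 2 females and 3 males by label. Of the KO embryos 2 were labelled NTD, 1 inHB and 2 norm, and of the HET embryos 2 inHB and 3 norm, where the labels do not explain inHB. The study's list of embryos gives the embryos labelled inHB as brain malformation. A CpG in an intron of Tet1 (GRCm38/mm10, chromosome 10, position 62884019), picked because it separated 10 KO from 5 WT libraries of the other diets, read between 77.8 and 100% in the 5 KO libraries and between 8.33 and 28.6% in the 5 HET libraries. The library labelled KO replicate 1 read 45% there (95% Wilson interval 25.8 to 65.8%, 20 reads, for counting error only). Of the libraries labelled WT on this diet, replicates 1 and 3 read 0% and replicate 2 read 36.36% (22.2 to 53.4%, 33 reads), and WT libraries enter no test below. Levels on the X chromosome matched the labelled sex in all 10 libraries. The 10 libraries held 25.6 to 61.8 M calls over CpGs, where a read counts once at each CpG it covers. Mean coverage was 12.95 to 25.2 reads per CpG. Read counts of tiles given below are likewise summed over their CpGs, and replicate numbers are names only.

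Mean methylation was compared first, over the 1220060 autosomal CpGs covered by at least 5 reads in all 10 libraries. Brains of KO embryos were more methylated than those of HET embryos, and the groups did not overlap. The level was 39.3, 39.5, 39.6, 39.65 and 39.4% in KO replicates 2 to 6, and 37.2, 37.6, 37.2, 37.4 and 38.04% in HET replicates 1 to 5. The group means were 39.5% ± 0.152 (SD, n = 5) and 37.5% ± 0.344 (n = 5), which differ by 2.00 percentage points (two-sided exact permutation test over embryos, p = 0.00794, the smallest that 5 against 5 allow). The KO brains labelled NTD, a neural tube defect, were replicates 2 and 3, with 39.3 and 39.5%. Litters that held both genotypes gave differences of 2.05, 1.96 and 1.599 points (litters 36, 38 and 41). When each library was averaged over all CpGs it covered, in place of the shared ones, the difference was 0.0964 points (exact permutation p = 0.952), and the CpGs so covered numbered between 1627068 and 2189996 per library.

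**Figure D1:**
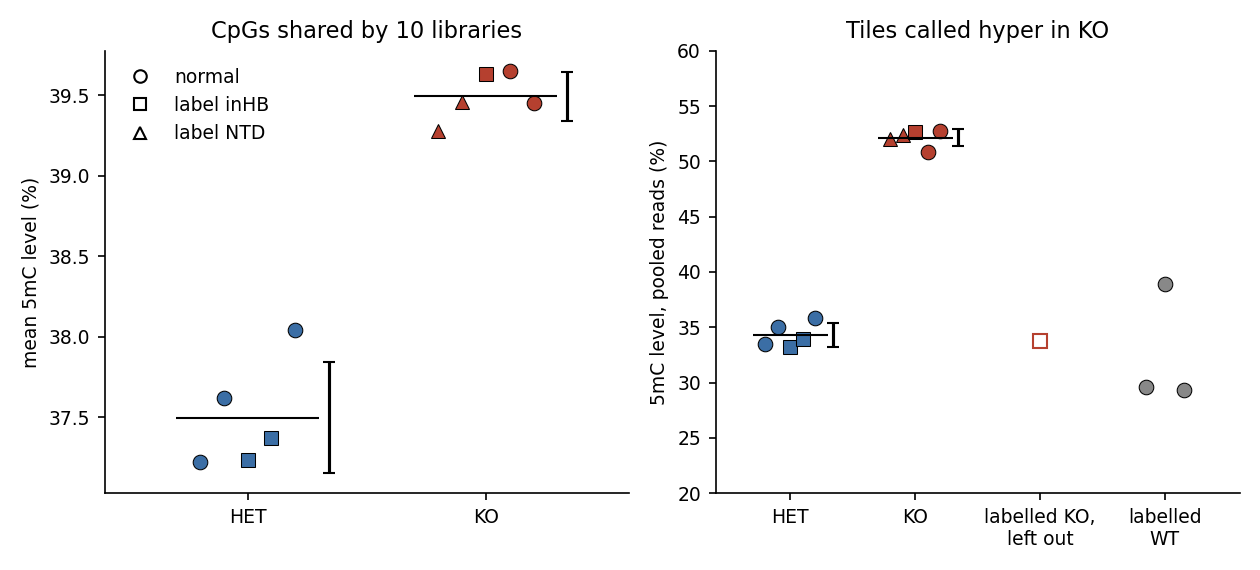
Level of 5mC per embryo on the 30 ppm diet, in percent, with 1 point per library (its shape gives the phenotype label), the group mean as a line and the SD as a bar. The left panel gives the mean over CpGs shared by the 10 libraries, where all KO points lie at or above 39.3 and all HET points at or below 38.04. The right panel gives pooled reads at the tiles called hyper in KO, which were chosen on the HET and KO points, beside the library labelled KO replicate 1 and the libraries labelled WT, which were not used in that choice.

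To see where in the genome the gain lay, the autosomes were cut into tiles of 1 kb, and 104648 tiles held at least 3 shared CpGs. Of these, 101755 had at least 10 reads, summed over CpGs, in each of 4 WT libraries of the 3 ppm diet. Those libraries belong to neither group, and the tiles were sorted by the level in them. KO exceeded HET in each class, and the difference was largest in tiles of intermediate level. Tiles between 20 and 80% in WT had a mean of 70.3% ± 0.336 in KO and 63.6% ± 1.22 in HET (n = 5 each), a difference of 6.76 points over 21821 tiles. Tiles under 20% differed by 2.30 points (5.15% ± 0.0522 against 2.85% ± 0.0792, 28781 tiles). Tiles over 80% differed by 1.33 points (91.7% ± 0.371 against 90.3% ± 0.541, 51153 tiles). In the tiles under 20% the KO level was raised from a low base, and the ranges of the groups (5.06 to 5.19% and 2.74 to 2.93%) were far apart. Exact permutation p-values adjusted over the 3 classes were 0.0119, 0.0119 and 0.0159. The last of them, for tiles over 80%, became 0.108 when the library labelled KO replicate 1 was kept as KO.

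By gene feature, tiles within 1 kb of a transcription start site differed by 2.07 points, those in exons by 3.26, in introns by 3.08 and between genes by 2.72 points. All 4 features passed the exact permutation test (adjusted p = 0.00794 each, n = 5 and 5). The base level differed far more between features than the gain did. Promoter tiles had 15.2% in KO and 13.1% in HET, while intronic tiles had 78.2 and 75.1%. By CpG density of the reference sequence, the difference was 1.73 points in tiles under 10 CpGs per kb, 2.94 at 10 to 19, 3.53 at 20 to 39 and 1.19 at 40 or more (adjusted p = 0.00794 each, exact permutation test). The densest tiles are those that stayed lowest in both groups, at 8.66 and 7.47%. For tiles under 10 CpGs per kb the adjusted p became 0.0844 with the library labelled KO replicate 1 kept as KO.

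Around the nearest start site of a protein-coding gene, both groups had their lowest levels at the start site itself and rose on either side. In the 250 bp before the start, KO had 2.41% and HET 1.98%, a difference of 0.431 points. At 1000 to 1250 bp after the start the levels were 19.7 and 16.5%, a difference of 3.17 points. At the same distance before the start they were 31.7 and 29.0%, a difference of 2.74 points. The gain was therefore smallest over the start and reached its wider level about 1 kb to either side, on the shoulders of the unmethylated window.

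**Figure D2:**
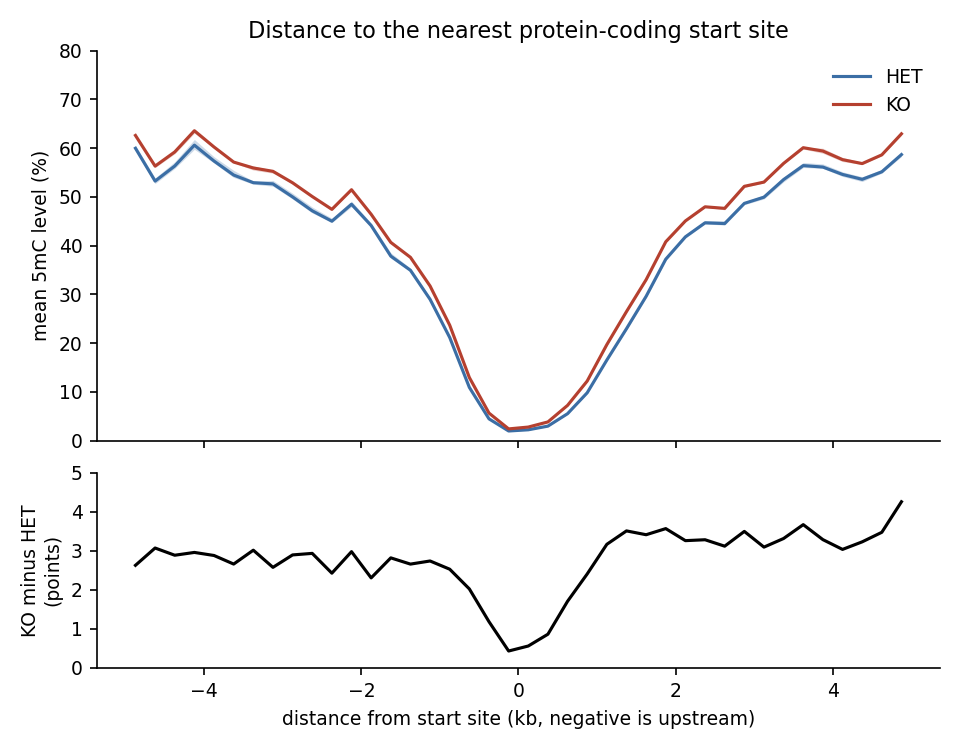
Mean 5mC level in percent by distance from the nearest protein-coding start site, in bins of 250 bp from 5 kb upstream to 5 kb downstream, with lines for the group means and narrow bands for the range over 5 embryos (top), and the difference KO minus HET in percentage points (bottom). The difference is 0.431 points in the bin just before the start and above 2 points beyond 750 bp on either side.

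Single tiles were tested next. Of the 104648 tiles, 76830 varied between the 10 libraries by an SD of at least 2 points and were tested by a quasi-binomial model of methylated and unmethylated reads, in which the embryo and not the read is the replicate. A tile was called hypermethylated (hyper) or hypomethylated (hypo) in KO at a Benjamini-Hochberg adjusted p under 0.05 over all 76830 tiles and a difference of at least 10 points. The changes were almost all gains. 6806 tiles were hyper, 8.86% of those tested, and 11 were hypo, 0.0143%. The median difference at hyper tiles was 15.4 points, and an interquartile range of 12.4 to 20.2, and 372 tiles gained at least 30 points. Over all tested tiles the median difference was 2.44 points and KO was higher in 76.7%, so the shift was not limited to the tiles called. With no SD filter, over all 104648 tiles, the median was 1.24 points. Every KO embryo lay above every HET embryo in 4780 of the hyper tiles, and among all tested tiles this held in 8096 (10.5%), against 80 (0.104%) with every KO below every HET. With the library labelled KO replicate 1 kept as KO there were 3348 hyper tiles, and with it counted as HET there were 7307. In embryos of normal phenotype alone, 2 KO against 3 HET, 4694 tiles were hyper and 34 hypo.

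**Figure D3:**
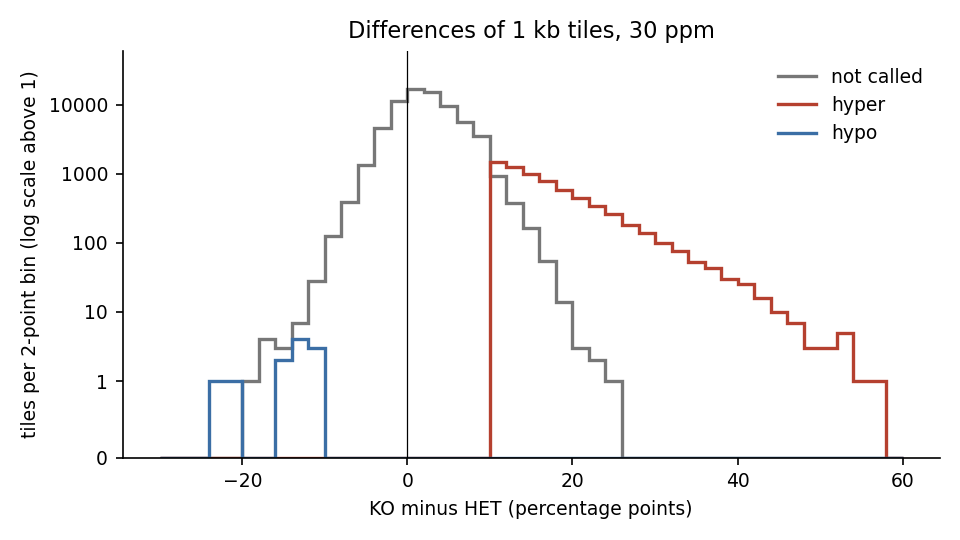
Number of 1 kb tiles by the difference KO minus HET in percentage points, in bins of 2 points, as separate outlines for tiles not called, hyper and hypo, on an axis that is logarithmic above 1. The differences run from -22.6 to 56.2 points, and the 11 hypo tiles stand against 6806 hyper tiles.

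Hyper tiles were described by their sequence and place, with no test since the call chose them. They had a median of 21 CpGs per kb and 51.9% G and C, against 17 and 47.8% in the tiles not called hyper, and a median HET level of 42.12% against 87.3%. In promoters 1522 of 7052 tested tiles were hyper (21.6%), and in exons 1508 of 14875 (10.1%). Tiles in introns (1918 of 27509, 6.97%) and outside genes (1858 of 27394, 6.78%) had lower shares. The SD filter removed most promoter tiles, as 7052 of 25115 covered ones passed it. Counted over all tiles with 3 shared CpGs, the share of hyper tiles was 6.06% in promoters, 8.21% in exons, 6.32% in introns and 6.03% between genes, so that promoters did not lead on that base. Exonic tiles under 20% in WT had the highest share of hyper tiles among the tested, 443 of 943 (47.0%), and tiles over 80% in WT had the lowest, between 0.248 and 0.540% by feature. The SD was taken over KO and HET together, so a tile of low level could enter the test through its gain. Shares of these feature and level classes over all covered tiles were not counted. The order of the levels also turned with the base. Of all features together, 30.1% of tested tiles under 20% in WT and 20.7% of those at 20 to 80% were hyper, but over all covered tiles the shares were 7.27 and 20.5%, since 6961 of the 28781 tiles under 20% passed the SD filter. The 1289 hyper promoter tiles of protein-coding genes belonged to 1163 of 4626 genes, and 71.0% of them lay downstream of the start, as did 63.5% of the tested ones. Hyper tiles occurred on every autosome, at 6.80 to 11.6% of the tested tiles of a chromosome. Within 10 Mb of Tet1, where KO embryos share the chromosome that carries the allele, 66 of 869 tiles were hyper (7.59%), against 8.87% elsewhere.

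The 10 hyper tiles with the largest differences, at most 1 per gene and with no overlap between groups, gained 50.301 to 56.2 points each. They lay near or in C2cd4b, Tmem233, Tbc1d8, Dmtn, Cdh22, Olfr153, Popdc2, Zfp467, Prima1 and BC050972, and all of them went from a level of 8.67 to 26.3% in HET to one of 61.3 to 78.9% in KO. 5 of them are printed below from the GRCm38 reference, plus strand, from the first to the last measured CpG, to show where the measured CpGs lie. Capitals mark the measured CpGs.
C2cd4b, chr9:67700114-67700152: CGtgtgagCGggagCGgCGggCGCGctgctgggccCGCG
Tmem233, chr5:116083026-116083179: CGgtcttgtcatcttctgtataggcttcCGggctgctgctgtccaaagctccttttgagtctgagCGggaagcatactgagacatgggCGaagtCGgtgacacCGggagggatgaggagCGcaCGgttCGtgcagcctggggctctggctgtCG
Tbc1d8, chr1:39390985-39390996: CGcCGcactcCG
Dmtn, chr14:70604701-70604716: CGgacagggCGagcCG
Olfr153, chr2:87526008-87526143: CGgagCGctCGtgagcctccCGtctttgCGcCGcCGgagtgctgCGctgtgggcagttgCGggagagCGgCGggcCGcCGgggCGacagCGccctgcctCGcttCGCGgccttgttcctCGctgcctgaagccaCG
Every CpG within each of these stretches was covered, and G and C made up 59.7 to 84.6% of their bases.

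The largest difference was in an intergenic tile on chromosome 9 (67700001 to 67701000), 59304 bp upstream of the nearest start site, that of C2cd4b. Its 8 CpGs had 68.0, 66.3, 66.3, 60.6 and 69.2% in the KO embryos and 6.81, 13.6, 7.28, 7.58 and 14.1% in the HET embryos. All 8 CpGs separated the groups one by one, in a tile that was chosen for having no overlap. The means of 66.1% ± 3.30 and 9.89% ± 3.66 (n = 5 each) differed by 56.2 points (quasi-binomial test, adjusted p = 5.0e-18). In the library labelled KO replicate 1 the same CpGs had 17.4%, and in those labelled WT 4.56, 32.9 and 4.17%. The library labelled WT replicate 2 was thus above all HET embryos here.

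The tile at the start of Tmem233, which encodes a transmembrane protein, was classed as promoter (chromosome 5, 116083001 to 116084000). Its measured CpGs overlapped coding sequence and were centred 142 bp downstream of the start. It had 62.4, 78.5, 74.8, 64.6 and 70.3% in KO and 11.2, 16.9, 13.8, 19.4 and 14.2% in HET. The gain ran through the whole stretch printed above, with differences of 39.1 to 64.2 points at its 10 CpGs and no overlap at any of them. The last CpG of the printed stretch was the least methylated in both groups, with 40.998% in KO and 1.88% in HET. The gene lies on the minus strand, so this CpG is the one nearest its start. The tile difference was 55.01 points (adjusted p = 1.3e-16, quasi-binomial test).

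The tile near Olfr153, an olfactory receptor gene, held 20 CpGs within 136 bp between genes, 5721 bp upstream of its start (chromosome 2, 87526001 to 87527000). Levels were 74.7, 73.9, 65.3, 56.5 and 71.5% in KO and 16.2, 14, 12.5, 11.9 and 25.7% in HET, a difference of 52.3 points (adjusted p = 4.4e-16, quasi-binomial test). The groups did not overlap at any of the 20 CpGs, though their level was not uniform. Means of single CpGs ran from 45.28 to 95.1% in KO and from 8.43 to 29.7% in HET. These CpGs are read together on the same fragments and are not independent of each other.

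The tiles in Tbc1d8, a gene of the TBC domain family of Rab GTPase regulators, and in Dmtn, which encodes the actin-bundling protein dematin, rested on 3 CpGs and fewer reads. The intronic Tbc1d8 tile (chromosome 1, 39390001 to 39391000) had 10 to 36 reads at each CpG. Its levels were 83.3, 92.3, 66.7, 54.4 and 73.3% in KO and 30, 15, 12.5, 18.5 and 26.7% in HET. The Dmtn tile, in an untranslated exon (chromosome 14, 70604001 to 70605000), had 6 to 16 reads at each CpG. Its levels were 70.8, 81.8, 79.2, 81.8 and 81.0% in KO and 43.75, 33.3, 24.2, 13.3 and 16.7% in HET. Spread within a group was wider here than in C2cd4b, up to an SD of 14.7 points in KO, but still well under the differences of 53.5 and 52.7 points (adjusted p = 2.8e-08 and 5.7e-07).

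The other 5 tiles had differences of 50.301 to 52.7 points with adjusted p between 5.0e-18 and 9.6e-09. The Cdh22 tile, in the coding sequence of a cadherin (chromosome 2, 165181001 to 165182000), had 61.3% ± 5.41 in KO and 8.67% ± 2.51 in HET. The Zfp467 tile, in an exon of a zinc finger gene, had 73.6% ± 6.09 and 22.0% ± 5.64. Popdc2, which encodes a cAMP-binding Popeye protein of heart and muscle, gained in an intron from 19.5% ± 7.58 to 71.7% ± 13.4. Prima1, whose product anchors acetylcholinesterase in neuronal membranes, gained 710 bp downstream of its start from 12.5% ± 3.97 to 63.8% ± 8.94. The BC050972 tile, 1763 bp upstream of its start, went from 16.1% ± 2.99 to 66.4% ± 6.44.

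Among promoters of protein-coding genes not yet named, the 5 largest gains were at Cartpt, Srgn, Spaca1, Nipsnap3a and Alkal1. Cartpt, which encodes the CART neuropeptide, had 72.1, 70.8, 60.2, 68.1 and 62.0% in KO and 17.1, 27.0, 14, 16.4 and 22.1% in HET at 4 CpGs (47.3 points, adjusted p = 3.3e-11). Srgn, which encodes the granule proteoglycan serglycin of blood cells, had 63.3% ± 4.20 against 16.1% ± 13.7 (47.3 points). Spaca1, a sperm acrosome protein gene, had 64.5% ± 6.49 against 18.002% ± 8.88 over 12 CpGs that straddle its start (46.5 points). Nipsnap3a gained 45.7 points and Alkal1, which encodes a ligand of the receptor tyrosine kinases ALK and LTK, 44.5 points (adjusted p = 1.4e-12 and 2.0e-07, quasi-binomial test).

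**Figure D4:**
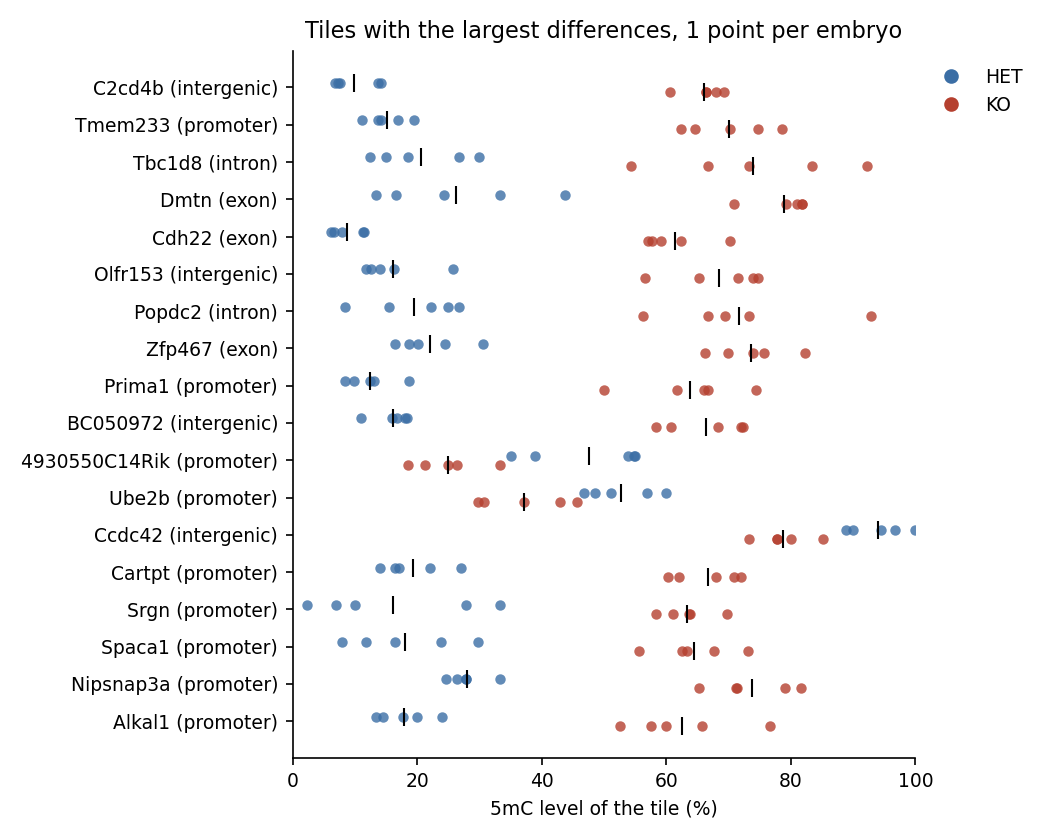
Level of 5mC in percent of the 10 hyper tiles with the largest gains, the 3 hypo tiles without overlap and the 5 hyper promoter tiles, from top to bottom, with 1 point per embryo and a tick at each group mean. The HET points of the hyper tiles lie at or below 43.75% and the KO points at or above 50%, while at the 3 hypo tiles the order is turned.

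Losses were few. Of the 11 hypo tiles, 3 had every KO embryo below every HET embryo. A tile at the start of 4930550C14Rik (chromosome 9, 53404001 to 53405000) had 18.5, 25, 26.5, 33.3 and 21.3% in KO and 55, 38.9, 54.76, 35.1 and 53.8% in HET (fell by 22.6 points, adjusted p = 0.0100). The call was lost with the library labelled KO replicate 1 kept as KO (-18.8 points, adjusted p = 0.131) and in embryos of normal phenotype alone (-21.9 points, 0.107). A promoter tile of Ube2b, a ubiquitin-conjugating enzyme gene, which lies 820 bp upstream of its start and inside the non-coding genes Gm12204 and Gm26551, had 37.2% ± 7.07 against 52.7% ± 5.59 (adjusted p = 0.00122), and its difference of -14.5 points in embryos of normal phenotype alone did not pass the test (adjusted p = 0.0691). A tile near Ccdc42 had 78.8% ± 4.31 against 94.0% ± 4.62 (adjusted p = 0.0326, quasi-binomial test). It rested on 15 to 30 reads summed over 3 CpGs, and its adjusted p became 0.127 with litter as a block (quasi-binomial test). Its adjusted p also rose to between 0.0537 and 0.103 when 1 embryo was left out, for 7 of the 10 embryos. The call was kept without KO replicate 5 and without HET replicates 4 and 5. It was lost in embryos of normal phenotype alone (-11.9 points, adjusted p = 0.361). With the library labelled KO replicate 1 kept as KO or counted as HET it was lost too (adjusted p = 0.0560 and 0.0531, quasi-binomial test). The 6 hypo tiles that were covered on the 3 ppm diet had a KO minus HET difference of 1.265 points there (exact permutation p = 0.679).

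Genes that the study follows were read whatever their values. Tet1 itself had 10 tested tiles, of which 4 were hyper and none hypo. The strongest, in an intron 4495 bp upstream of a start site inside the gene (chromosome 10, 62884001 to 62885000), had 87.3, 90.3, 98.1, 85.5 and 89.7% in KO and 42.2, 49.0, 50.7, 51.5 and 58.7% in HET, and it holds the CpG at position 62884019 read above. The adjoining tile had 75.5% ± 2.84 and 45.57% ± 7.76 (29.9 points, adjusted p = 1.1e-09). Another intronic tile had 35.25% ± 4.67 and 10.8% ± 3.41. A sequence difference that goes with the targeted allele cannot be told apart from methylation at these positions.

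Of the folate carriers, Slc19a1, the reduced folate carrier, had 5 tested tiles, of which only the promoter tile was hyper. The others differed by -0.886 to 4.75 points (adjusted p between 0.263 and 0.799, quasi-binomial test). The promoter tile had 42.03, 41.27, 50, 42.5 and 51.6% in KO and 41.6, 27.8, 20, 27.1 and 24.6% in HET. Its difference was 17.3 points (adjusted p = 0.0101, quasi-binomial test), and HET replicate 1 overlapped the KO range. The call was lost in embryos of normal phenotype alone (15.7 points, adjusted p = 0.349) and with the library labelled KO replicate 1 kept as KO (14.2 points, 0.0964). Slc46a1, the proton-coupled folate transporter, had 1 tested tile, 1080 bp downstream of its start, with 81.3% ± 4.72 in KO and 80.9% ± 1.80 in HET (adjusted p = 0.930). The folate receptor genes Folr1 and Folr2 had 1 and 2 tested tiles inside the genes, with differences of 0.919, -0.578 and -2.97 points (adjusted p between 0.669 and 0.966, quasi-binomial test). Slc46a1 and the receptor genes were thus measured at few CpGs (29, 3 and 12 shared CpGs). Per the study, a promoter region of Slc46a1 that was raised in cultured KO neural cells was not covered by these libraries. The study's targeted bisulfite sequencing around it found higher methylation in KO than in WT whole embryos on the excess folic acid diet. The tested Slc46a1 tile therefore cannot decide whether that region differed between KO and HET brains.

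Slc10a4 and Slc32a1, transporters of synaptic vesicles, moved at CpG-dense tiles. The Slc10a4 promoter tile, with 25 CpGs, had 30.4, 24.1, 22.2, 26.3 and 23.9% in KO and 12.7, 8.11, 9.13, 10.5 and 14.7% in HET (14.3 points, adjusted p = 1.5e-09). An exonic tile of Slc32a1, the vesicular GABA transporter, had 24.9% ± 5.45 and 10.4% ± 4.01 (14.6 points, adjusted p = 1.0e-06). A further Slc32a1 tile with 40 CpGs, on 597 to 1259 reads summed over them, had 13.5% ± 3.14 and 4.57% ± 1.05. Its difference of 8.94 points passed the quasi-binomial test (adjusted p = 1.7e-09) but not the 10-point limit. Gains at the Slc32a1 gene were thus present in several tiles below that limit. All 7 covered tiles at the gene and within 1 kb of it had a higher mean in KO, by 0.790 to 14.6 points, where KO was higher in 76.7% of all tested tiles. Among the 7 are the tiles named by the antisense gene Gm14205, which lost the test with litter as a block (adjusted p = 0.127 and 0.116, quasi-binomial test).

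Gene lists were then read against the background of all tested tiles, 8.86% of which were hyper with a median difference of 2.44 points, and no list was tested. Over all covered tiles, including those removed by the SD filter, 6.50% were hyper and the median difference was 1.24 points. That base sets the same hyper tiles against more tiles, so every share on it is lower by construction. Shares on it were 12.5% for potassium channels, 11.2% for markers of other cell types, 9.52% for muscle and 8.97% for synaptic transmission. They were 8.82% for germline genes, 7.76% for imprinted regions, 7.40% for axon guidance and 7.29% for solute carriers. Planar cell polarity and sonic hedgehog genes had 3.91 and 3.26%, and the other lists are given below. By gene, 4362 of 20025 tested genes of all types had at least 1 hyper tile (21.8%), with no adjustment for the number of tiles per gene. Of protein-coding genes alone, 3357 of 13226 did. No tile of any list was hypo, but only 11 of all 76830 tested tiles were (0.0143%), so this does not set the lists apart. Among genes of cranial neural tube closure, 16 of 213 tested tiles were hyper (7.51%, median 2.44 points), in 7 of 41 tested genes (17.1%). Of the 16 hyper tiles, 4 were those of Tet1 itself. Over their 346 covered tiles the share was 4.62%, so these shares lay below the background. The 7 genes included Gli3, Grhl3, Palld, Ptk7, Shroom3 and Tet1. Grhl3, a grainyhead factor of the surface ectoderm, and Shroom3, an organiser of apical constriction, had 3 hyper tiles each, of 8 and 23 tested, with 23.9 and 22.5 points at the largest. Of planar cell polarity genes, 11 of 193 tiles were hyper (5.70%). The largest gain was at Ankrd6 (Diversin), with 76.1, 66.7, 43.5, 42.2 and 42.3% in KO and 37.8, 27.8, 28.3, 40.4 and 29.2% in HET (adjusted p = 0.0176). Its 2 highest values were those of the KO embryos labelled NTD, and the call was lost without either of them (adjusted p = 0.0727 and 0.0734, quasi-binomial test). In embryos of normal phenotype alone its difference was 10.7 points (adjusted p = 0.557), it was 18.2 points (0.0539) after the disputed library was moved to HET, and on the 3 ppm diet it was -1.28 points.

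One-carbon and folate metabolism genes had 9 hyper tiles of 99 (9.09%, median 2.31 points), in 10 of 37 tested genes, since neighbouring genes share a tile. Over their 163 covered tiles the share was 5.52%, below the 6.50% of all covered tiles. The largest was in a coding exon of Ftcd, an enzyme that uses folate in histidine breakdown (chromosome 10, 76584001 to 76585000). It had 81.7, 86.5, 78.1, 73.0 and 88.5% in KO and 40.0, 45.2, 29.8, 37.1 and 39.5% in HET, a gain of 43.3 points (adjusted p = 9.8e-12). The mitochondrial enzymes Aldh1l2, Shmt2 and Mthfd1l had 1 hyper tile each, of 4, 3 and 10 tested, with 21.7, 19.1 and 16.6 points. Genes of DNA methylation and demethylation had 10 hyper tiles of 61 (16.4%), of which 4 were those of Tet1 itself. Over their 118 covered tiles the share was 8.47%. The others were in Dnmt3a, a de novo methyltransferase (2 of 8 tiles, 22.7 points at the largest), Apobec1, Tet3, Dnmt3l and Mbd2.

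Lists of synaptic, channel and axon guidance genes were read next. Synaptic transmission genes had 60 of 496 (12.1%, median 3.24 points), in 34 of 69 tested genes. The NMDA receptor subunit gene Grin2d led it, with a promoter tile at 47.4, 63.9, 40.9, 32.3 and 48.7% in KO and 9.88, 7.76, 10.7, 6.41 and 4.07% in HET (38.9 points, adjusted p = 8.9e-11). Bsn, a scaffold of the presynaptic active zone, and the presynaptic adhesion gene Nrxn2 followed with 37.9 and 36.1 points. Postsynaptic scaffold genes Shank1, Shank2 and Shank3 had 3, 5 and 3 hyper tiles, of 6, 21 and 12 tested. Potassium channel genes had the highest share of the 16 lists, 61 of 364 (16.8%, median 3.28 points), in 40 of 83 genes. The largest gain was in coding sequence of Kcna5, a voltage-gated channel, 847 bp downstream of its start, at 59.3, 47.6, 52.4, 58.2 and 53.4% in KO and 22.3, 10.5, 13.3, 11.1 and 13.3% in HET (40.105 points, adjusted p = 3.8e-13).

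Axon guidance genes had 52 hyper tiles of 500 (10.4%, median 3.21 points), in 33 of 72 genes. A coding tile of Sema5b, a transmembrane semaphorin, had the most summed reads of the named tiles (chromosome 16, 35660001 to 35661000). Its 48 CpGs held 907 to 2198 reads per embryo, summed over CpGs. It had 62.0, 66.9, 62.2, 56.3 and 62.3% in KO and 17.7, 21.6, 14.5, 18.5 and 23.1% in HET, a difference of 42.88 points (adjusted p = 1.3e-19). Both receptors and ligands of guidance held hyper tiles, among them the ephrin receptor gene Epha8 (37.5 points at its largest tile), the netrin gene Ntn1 (27.1), Sema7a (26.98) and the Slit receptor gene Robo3 (26.6). Solute carriers had 106 hyper tiles of 1006 (10.5%, median 2.66 points). A coding tile of Slc46a2, a relative of the folate transporter gene, gained most, from 32.5% ± 5.42 to 76.2% ± 8.10 (adjusted p = 4.3e-10).

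Signalling and patterning lists were mixed. WNT ligands, receptors and inhibitors had 28 hyper tiles of 207 (13.5%, median 4.08 points), in 20 of 47 genes. Over their 345 covered tiles the share was 8.12% and the median 1.28 points. The receptor gene Fzd1 led with 67.9% ± 5.92 in KO and 29.7% ± 3.24 in HET (adjusted p = 8.6e-09, quasi-binomial test). Wnt3a and Wnt5b (35.01 and 34.55 points) and the inhibitor gene Dkk1 (31.3) came next. Sonic hedgehog genes had 7 of 144 (4.86%), below the background, 1 each in Gli1, Gli3, Gpr161, Hhip, Ihh, Scube1 and Shh. Gpr161, a ciliary receptor that restrains the pathway, had 87.3% ± 8.04 and 52.6% ± 5.29 in an intron (34.7 points, adjusted p = 5.3e-09). Homeobox and PAX genes of brain patterning had 17 of 127 tested tiles hyper (13.4%, median 3.96 points). On the base of all 495 covered tiles their share was 3.43% and their median 0.223 points, below the 6.50% and 1.24 points of all covered tiles. Of the 495, 127 had passed the SD filter. Dbx1, a homeobox gene of neural tube progenitors, led with 56.1% ± 13.4 in KO and 24.6% ± 2.67 in HET (adjusted p = 3.7e-06). Lhx2 had 3 of 3 tested tiles hyper, a count that leaves out any tile removed by the SD filter. The HOX clusters had 1 hyper tile of 24 tested, in Hoxa7 with 30.1% ± 11.6 and 9.85% ± 2.75 (adjusted p = 7.1e-06), and 0.625% of their 160 covered tiles were hyper.

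Lists of muscle, germline and imprinted genes and of markers of other cell types also held hyper tiles. Heart and skeletal muscle genes had 38 of 291 (13.1%, median 2.69 points), in 17 of 46 genes. Tbx5, a factor of heart and forelimb, had 66.1, 53.4, 50.6, 59.9 and 56.99% in KO and 20.7, 15.5, 22.1, 22.4 and 27.7% in HET in an intron (35.7 points, adjusted p = 4.3e-13). Acta1, skeletal muscle actin, gained 33.7 points at its largest tile and Jph2, a junction protein of cardiac muscle, had 6 of 11 tiles hyper. Germline genes had 12 of 118 (10.2%, median 1.73 points). Besides Spaca1, Piwil1 gained 32.6 points and the meiotic gene Sycp3 20.4. Genes at imprinted regions had 9 of 95 (9.47%), with the largest gain in an exon of Igf2 (38.9% ± 15.4 against 8.96% ± 7.77, adjusted p = 4.3e-05), a gain of 29.9 points that was 16.4 points and no longer called in embryos of normal phenotype alone (adjusted p = 0.256). Markers of mesenchyme, endothelium and blood had 22 hyper tiles of 151 (14.6%, median 3.25 points), in 12 of 23 genes, with the largest gain in the mural cell gene Pdgfrb (45.9% ± 2.67 against 17.98% ± 2.43, adjusted p = 1.1e-10). DNA methylation at such markers does not give the share of these cells, and their part in the results was not tested.

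**Figure D5:**
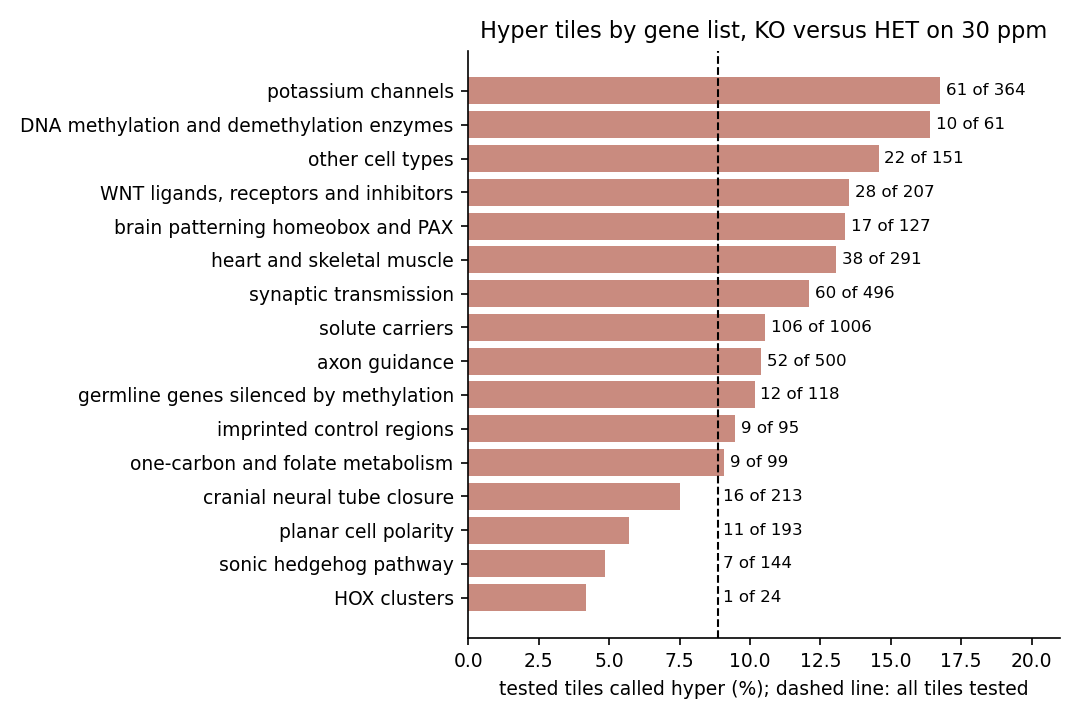
Percentage of tested 1 kb tiles called hyper in KO in each of 16 gene lists, with the number of hyper tiles of those tested at each bar and a dashed line at the 8.86% of all tested tiles. Potassium channel genes lie highest and the HOX clusters, with 24 tested tiles, lowest. No list was tested against the background.

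Embryos of the other diets, which took no part in the choice of tiles, were read at the same places. On the 3 ppm diet, 5812 of the 6806 hyper tiles were covered, and their level was 52.6% ± 0.917 in KO (n = 5) and 35.6% ± 0.775 in HET (n = 3). The difference of 17.0 points had the smallest p the design allows (exact permutation p = 0.0179, adjusted over 4 comparisons 0.0714). On the 0.1 ppm diet, the level was 52.2% ± 0.456 (n = 5) and 35.8% ± 0.889 (n = 2), so that KO exceeded HET by 16.4 points (exact permutation p = 0.0476, again the smallest possible, adjusted 0.0952). HET replicate 2 of the 0.1 ppm diet was not read, since the study had excluded it as an outlier. KO was higher in 97.5 and 96.6% of the covered hyper tiles, against 73.2 and 69.2% of all covered tiles that had been tested on 30 ppm. Over all of those tiles the differences were 4.804 and 4.24 points. In the pooled level of the hyper tiles, every KO embryo of both other diets was above every HET embryo read on its diet, while at the hypo tiles the differences were 1.265 and -0.686 points (exact permutation p = 0.679 and 0.857).

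Tested by themselves, KO and HET embryos differed at 5087 hyper tiles on 3 ppm (7.79% of those tested) and 4844 on 0.1 ppm (6.76%). Of the tiles tested on both 30 and 3 ppm, 3538 were hyper on both, 60.9% of the 30 ppm calls and 73.1% of the 3 ppm calls. The 2270 tiles called on 30 ppm but not on 3 ppm still had a higher KO level on 3 ppm in 93.7%, with a median of 7.79 points, beside 73.2% and 2.14 points over all tiles tested on 30 ppm and covered on 3 ppm. Whether the KO effect differed between 30 and 3 ppm was tested as an interaction. Of 61515 tiles, 0 passed (0%, lowest adjusted p = 0.208, quasi-binomial test), with 1167 at an unadjusted p under 0.05 and at least 10 points. A simulation used the 76830 tiles tested on 30 ppm, not the 61515 of this test, and 30 ppm coverage for the 3 ppm libraries. It altered 200 tiles of low to intermediate level by an interaction of 30 points. Of these, 78% were recovered, so smaller differences between the diets could be missed.

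The tiles named above were also looked up. Of the 10 with the largest gains, 9 were covered on each other diet, and in all of these KO had the higher mean. The groups did not overlap in 9 of 9 on 3 ppm and in 8 of 9 on 0.1 ppm. Over all tiles tested on 30 ppm and covered on the other diet, every KO embryo was above every HET embryo read in 15.2% on 3 ppm and in 19.2% on 0.1 ppm. The C2cd4b tile had 63.8% ± 7.08 and 13.4% ± 1.15 on 3 ppm and 68.8% ± 3.52 and 16.1% ± 0.260 on 0.1 ppm (n = 5 and 3, n = 5 and 2). Popdc2 was the exception on 0.1 ppm, with 61.7% ± 8.01 in KO and 50.6% ± 19.4 in HET. Of the 5 promoter tiles, the 4 that were covered did not overlap on either diet, with differences of 31.4 to 46.4 points on 3 ppm and 34.2 to 43.8 points on 0.1 ppm. The Ube2b tile, hypo on 30 ppm, had 44.4% in KO and 36.9% in HET on 3 ppm. On 0.1 ppm it had 46.3% in KO and 46.9% in HET. Among covered tiles that led a gene list, all but those of Ankrd6 and Hoxa7 were free of overlap on 3 ppm. The Hoxa7 difference was 7.71 points there, and 17.5 points without overlap on 0.1 ppm.

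Regions that the authors had listed from embryos of the 3 and 0.1 ppm diets were read in the 30 ppm embryos, and none of those embryos took part in making these lists. The level at regions hyper in KO against WT on 3 ppm was 51.3% ± 0.391 in KO and 40.16% ± 0.858 in HET, a difference of 11.1 points over 17281 regions with a shared CpG. At those of 0.1 ppm it was 45.7% ± 0.568 and 32.2% ± 0.899, a difference of 13.5 points. Both genotypes were set apart at these regions, with all 5 KO embryos above all HET embryos. Regions hyper in HET against WT on 3 ppm differed by 12.4 points (66.3% ± 0.406 against 53.97% ± 1.06), so KO embryos lay above HET embryos where HET had been listed as raised over WT. Regions where WT embryos lost methylation on 0.1 against 3 ppm differed by 9.83 points, and those where they gained by 4.91 points. Each of the 5 lists had an exact permutation p of 0.00794, the smallest possible (adjusted 0.00794, n = 5 and 5). Every gene feature and CpG density class gave the same p, so it does not set these lists apart from the rest of the genome. Tiles at 20 to 80% in WT, for example, differed by 6.76 points. Whether the lists differ more than other regions of like level was not tested. The library labelled KO replicate 1 had 39.1% and 31.2% at the first pair of lists, beside lowest HET values of 39.2 and 31.2%.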

How the data were processed

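Libraries were read as oxidative bisulfite reduced representation sequencing of 5mC. Per the labels and the study's methods, the authors trimmed reads with Trim Galore (0.6.10), aligned them to mm10 with Bismark (0.24.1), removed duplicates by molecular identifier with UMI-tools and ran methylKit (1.26.0) in R (4.3.1). The deposited files give, per CpG, a methylation fraction and the coverage as a count of reads, as the authors made them. Positions in them count from 0, and 1 was added. Deposited region lists were used for coordinates only, and their fold and p-value columns, which hold the authors' comparisons, were not used.

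Methylated reads were taken as fraction times coverage. CpGs on autosomes with coverage of at least 5 in all 10 libraries were kept and tiled at 1 kb with at least 3 CpGs and an SD of at least 2 points. Tiles were tested with a quasi-binomial logistic model with moderated dispersion of at least 1 (Python 3.11.15, scipy 1.17.1), with limma (3.58.1) as an alternative. A tile carried a median of 62 to 138 reads per library, summed over its CpGs. In simulated data for KO against HET on 30 ppm (76830 tiles), 24% of changes of 10 points and 50% of 15 were called. For 20 and 30 points it was 78% and 100%, and 0.00783% of unchanged tiles were called. The changed tiles, 50 of each size, had low to intermediate mean levels, so their rates do not cover highly methylated tiles. Gene features came from GENCODE M21, with a promoter as 1 kb to either side of a start.

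Groups and litters (the TP number) came from the sample titles. Litter mates deviated from their group means with correlations of -0.00530 to 0.0349 (6 pairs of KO and HET), against -0.0314 to 0.0168 for 19 other pairs. Named tiles were the 10 largest gains and up to 5 losses without overlap, at most 1 per gene, the 5 largest promoter gains besides these, the largest gain per gene list, and all tested tiles of Tet1, Slc46a1, Slc19a1, Folr1, Folr2, Slc10a4 and Slc32a1, and the other genes named in lists were chosen after their values were seen. The members and lists were chosen with earlier results of these data known. On 0.1 ppm, HET replicate 2 was left out because the authors dropped it as an outlier. Alternatives changed coverage, filters, tile size, thresholds, litter, sex, phenotype, the disputed library and each embryo in turn.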

Additional observations from a re-analysis of the deposited data

Results flagged for a closer look

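Dixon's test was applied to 120 groups of 5 embryos, which were the KO and HET embryos at 58 named tiles, in mean methylation and in the level at hyper tiles. In 3 of them, all at named tiles, 1 embryo stood apart from the others at the 95% level, and chance alone gives some such groups. At the Dmtn tile KO replicate 2 had 70.8%, against 79.2 to 81.8% in the other KO embryos. At the Dbx1 tile KO replicate 6 had 32.8%, against 59.4 to 66.7%. At the Kcna5 tile HET replicate 1 had 22.3%, against 10.5 to 13.3%. Each of these 3 tiles remained called without the embryo in question.

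The libraries labelled WT on the 30 ppm diet enter no test above. At the hyper tiles WT replicate 2 had 38.9%, above the other WT libraries (29.4 and 29.6%) and above all 5 HET embryos (33.3 to 35.8%). The library labelled KO replicate 1 had 33.8% there, within the HET range and below the 50.8 to 52.8% of the other KO embryos.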

How the results depend on the processing

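The mean difference of 2.00 points kept its direction throughout and was no longer past the threshold over each library's own CpGs (0.0964, exact permutation p = 0.952) and in embryos of normal phenotype alone (1.99, p = 0.1, the smallest possible). It was 1.93 to 2.14 without any 1 embryo. Hyper tiles numbered 4126 with at least 5 CpGs (of 32775 tested), 1744 at 20 points and 3348 with KO replicate 1 kept as KO. They numbered 6387 to 7450 without any 1 embryo. Hypo tiles numbered 7 at coverage 10, 5 with at least 5 CpGs, 2 at 20 points, 32 with no overdispersion, 4 with KO replicate 1 kept and 34 in normal phenotype alone. Without any 1 embryo they numbered 12 to 18, with 18 and 17 without KO replicates 4 and 5. With litter as a replicate block there were 5613 hyper and 12 hypo tiles. Of the named tiles, Ccdc42 and the Gm14205 tiles at Slc32a1 then lost the quasi-binomial test (adjusted p = 0.127, 0.127 and 0.116). Other settings gave 6924 hyper tiles with sex as a covariate, 6000 by limma, 6723 with no SD filter, 4649 at coverage 10 (of 42431 tested), 6464 without chromosome 10 and 7630 at 500 bp.

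With KO replicate 1 kept, tiles over 80% in WT differed by 0.921 and those under 10 CpGs per kb by 1.24 points, and the calls were lost. On 0.1 ppm the hyper tiles differed by 15.8 to 17.0 points without any 1 embryo, with p between 0.0667 and 0.167 in designs too small for a lower one. Hypo tiles reversed on 3 ppm with KO replicate 1 kept (-0.387) and over -1.98 to 3.33 without any 1 embryo, and on 0.1 ppm with equal weight per CpG (0.449), with KO replicate 1 kept (4.18) and over -3.78 to 2.88. Among tiles not called, signs turned for Slc46a1 at coverage 10 (-2.01) and with KO replicate 1 kept (-0.180), for Folr2 with KO replicate 1 as HET (0.598) and in normal phenotype (0.790), for Slc10a4 with KO replicate 1 as HET (0.458), and for Slc19a1 in normal phenotype (-0.432 and 1.66). Without any 1 embryo they turned in a tile each of Tet1 (-1.79 to 0.713), Slc46a1 (-1.03 to 1.95), Slc19a1 (-1.88 to 0.491), Folr1 (-1.43 to 2.36), Folr2 (-5.19 to 0.391) and Slc10a4 (-4.26 to 1.42). Calls at 4930550C14Rik (adjusted p = 0.131) with KO replicate 1 kept, Ube2b (0.0691), 4930550C14Rik (0.107) and a Tet1 tile (0.104) in normal phenotype were also lost. So was the Ccdc42 call with KO replicate 1 kept (0.0560), with it as HET (0.0531) and in normal phenotype (0.361, quasi-binomial test). The settings with KO replicate 1 as HET, and those for tile classes, were chosen after seeing the data. The cause of these changes was not tested.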

Other observations

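Some genes outside the lists were chosen here after their counts of hyper tiles were seen. Gm20388 had 88 hyper tiles of 609 tested. Gse1 had 20 hyper tiles of 79 tested, Cux2, a homeobox gene of upper-layer cortical neurons, 12 of 47, and Rbfox3, which encodes the neuronal splicing factor NeuN, 12 of 55. Fgfr2, a fibroblast growth factor receptor gene, had 10 of 145, a lower share than the 8.86% of all tested tiles. Tnfaip2 had 6 of 6, Cilp2 6 of 7 and Smpd5 5 of 5. A tile counts for every gene it overlaps or closely flanks, so overlapping genes share tiles, and whether Gm20388 and Gse1 do was not looked up. These counts leave out tiles removed by the SD filter and were not tested against that share.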
